A study of Mus musculus with 24 samples.

Results

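The ubiquitin system genes described here are those whose symbol begins with Ube2 or Ube3, or with Usp, Otud, Fbxo, Fbxl, Fbxw, Herc, Trim or Rnf followed by a digit, with Fbxo11 left out. Fbxo11 fits the name rule, and the rule and this exclusion were set with earlier results of these data known. The members were taken from a table of Argonaute 2 (AGO2) contacts on messenger RNA. They comprise 397 of its 14634 peaks, in 114 of its 4165 genes. AGO2 is the effector protein that microRNAs guide to messenger RNA; it had been crosslinked to RNA and immunoprecipitated from activated CD4+ T cells, and the bound RNA fragments had been sequenced (HITS-CLIP). The 24 libraries were 12 from miR-155 KO cells and 12 from WT cells, each labelled a biological replicate. All came from C57BL/6 mice; cells of spleen and lymph nodes were cultured for 4 days with IL-2 (20 U/mL) and with stimulating anti-CD3 and anti-CD28 (1 µg/mL). No age or sex and no further allele is given in the labels. Each genotype had 6 libraries with each of the 3' linkers; among replicates numbered up to 6 linker 1 went with KO and linker 2 with WT, and the later numbers were the reverse. Genotype therefore cannot be told apart from linker within either set of numbers, which the pooled columns combine.

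Ubiquitin is attached to proteins by a relay in which an activating enzyme hands it to a conjugating enzyme (E2, the Ube2 genes), and a ligase (E3) brings the E2 to the substrate. HECT ligases (Ube3 and Herc genes) take over the ubiquitin before passing it on, RING ligases (Rnf and Trim genes) hold E2 and substrate together, and F-box proteins (Fbxo, Fbxl and Fbxw genes) select substrates for cullin-RING complexes. Deubiquitinases (Usp and Otud genes) remove it again. In T cells, ubiquitin ligases and deubiquitinases are known for setting the threshold of antigen receptor and NF-kB signalling. MicroRNAs recognise 3' untranslated regions (3' UTRs) mostly through bases 2 to 8 of the microRNA, the seed. A name prefix does not guarantee the activity: Usp6nl, which the rule includes, encodes a GTPase-activating protein.

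The microRNA whose loss was studied is shown first, with stretches of member peaks that match its seed. The 2 called differences, in Rnf6 and Usp14, lie at peaks with a 7-nt match. Of the peaks shown only that of Rnf6 was called, and no stretch is shown for Usp14. The mature sequence of mouse miR-155-5p (RefSeq, GRCm38.p6), with its seed in capitals, is followed by 30-nt stretches of peak sequence with the seed match in capitals.
miR-155-5p: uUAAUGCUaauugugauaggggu
Rnf6 peak 8: acacaaagtatGCATTAAagtctatttcta
Rnf4 peak 7: aatcagacactGCATTAAtagggaaagatt
Herc4 peak 1: ttaaaaactgtGCATTAAtactaaactgta
Rnf111 peak 11: tcaataagcttGCATTAAgccacctgcttt
Otud4 peak 25: tggtgtgatgctGCATTAtatatacaaccg
The first 4 peak stretches hold the 7mer-A1 match GCATTAA, which pairs with bases 2 to 7 and has an A opposite the first base of the microRNA. The last holds only the 6mer GCATTA. On GRCm38, by exact match of the peak sequences to annotated transcripts, the Rnf6 peak lies at chr5:146209192-146209248 on the minus strand in exon 5 of 5. The Rnf4 peak lies at chr5:34353248-34353307 (plus strand, exon 8 of 8), and the Herc4 peak at chr10:63317610-63317657 (plus strand, exon 25 of 25). The Rnf111 peak lies at chr9:70425429-70425503 (minus strand, exon 15 of 15), and the Otud4 peak at chr8:79677591-79677646 (plus strand, exon 21 of 21). All 5 are annotated as 3' UTR. A further 7mer-A1 match lies in peak 3 of Usp14.

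All read numbers are the authors' scaled reads, recovered from columns read as log2(1 + reads) and pooled over the libraries of a genotype, so no value has a replicate error, and the depth of single libraries is unknown. Summed over all peaks they came to 374126 in KO cells and 371088 in WT cells. A peak's reads follow both how much of the transcript is present and how often AGO2 is bound to it, and in pooled CLIP reads these cannot be told apart. Of 8 T cell markers, among them Cd4 but also genes of T cells in general such as Cd3e, 7 had peaks. These held 5838 scaled reads in KO cells and 4046 in WT cells, while no marker of CD8 T cells, B cells, myeloid cells, or red cells and platelets had a peak. Whether this difference in marker reads bears on the members was not tested.

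Ubiquitin genes held about the same share of AGO2 reads with and without miR-155. The members held 8454 scaled reads in KO cells and 8566 in WT cells, which is 2.26% of all reads in KO cells and 2.31% in WT cells. A peak was called changed from the p-value in the authors' deposited table, adjusted over all 14634 peaks by the Benjamini-Hochberg method, with a threshold of 0.05. By it, 2 member peaks fell in KO cells, in Rnf6 and Usp14, and 0 rose. Of all peaks 0.574% fell and 0.0273% rose by this rule, so 2 of 397 members is close to the background. At an unadjusted p below 0.05, 10 member peaks were lower and 4 higher in KO cells, against 2.72% and 1.48% of all peaks. An adjusted p above 0.99 was found for 387 of the 397 member peaks. The same count over all 14634 peaks is not given here, so this one does not set the members apart.

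The median of the better-read member peaks was near equal reads in both genotypes. For the 186 member peaks whose scaled reads over both genotypes came to 20 or more, the median log2 ratio of wild type over knockout was -0.012 (quartiles -0.42 and 0.49), against -0.00056 for all 6597 such peaks (quartiles -0.49 and 0.57). Of these 186, 139 (74.7%) lay within a doubling in either direction, against 76.0% of all such peaks. A further 24 were more than 2 times lower in KO cells on the deposited scale (12.9%, against 14% of all such peaks) and 23 more than 2 times higher (12.4%, against 10.1%). Over all 397 members the median was 0.23, against 0.20 for all peaks; this includes peaks with few reads, whose ratios depend on the pseudocount of 1. The knockout was listed at 0 reads for 61 member peaks (15.4%, against 16.6% of all peaks) and wild type for 28 (7.05%, against 7.87%); 2 of these are listed at 0 in both.

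**Figure D1:**
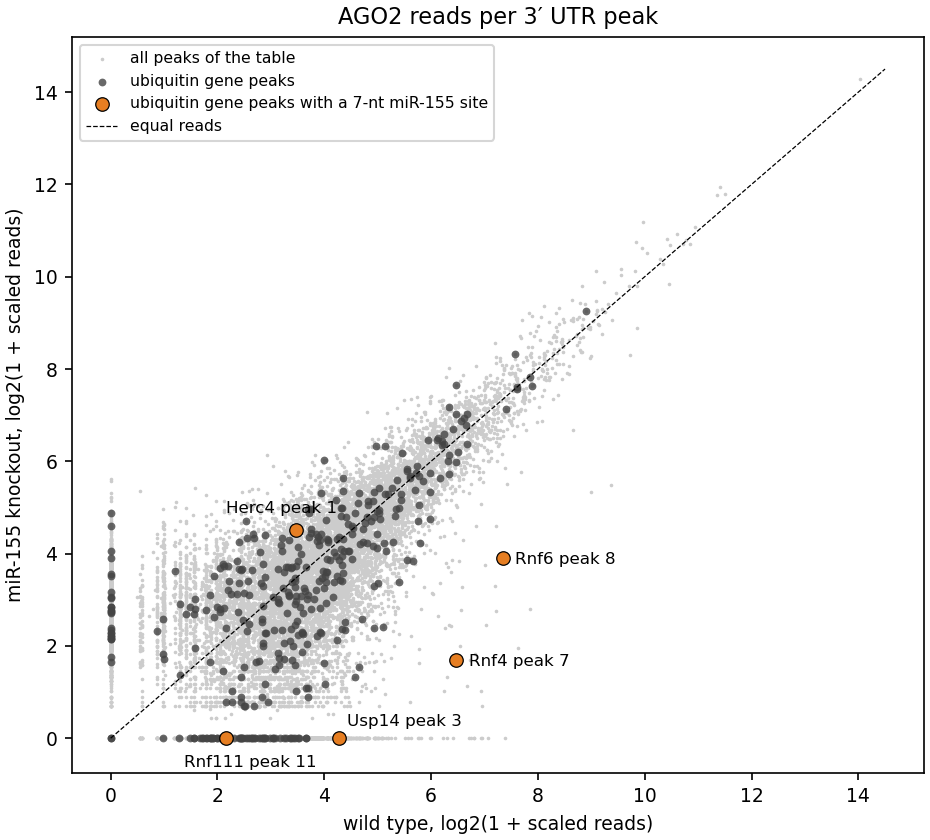
AGO2 reads of each peak in KO cells (vertical) against wild type (horizontal), as log2(1 + scaled reads) of pooled libraries; grey points are all 14634 peaks, dark points the 397 ubiquitin gene peaks, orange points the 5 of them with a 7-nt miR-155 site, and the dashed line marks equal reads. Most dark points follow the line, while Rnf6 peak 8 (13.9 in KO cells, 162 in WT cells) and Rnf4 peak 7 (2.23 and 87.5) lie far below it.

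Rnf6, a RING ligase gene, had the smallest p-value among the members. Its peak 8, which starts 960 nt into the 3' UTR, had 13.9 scaled reads in KO cells and 162 in WT cells (log2 ratio of wild type over knockout 3.44, p = 5.30e-07 in the authors' deposited table, Benjamini-Hochberg adjusted p = 0.000176). The other 7 peaks of the gene together held 62.8 reads in KO cells and 75.1 in WT cells. Peak 8 thus carried 18.2% of the gene's reads in KO cells and 68.3% in WT cells. Peak 7 of Rnf6 is listed at 0 in both genotypes.

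Rnf4, which encodes a ligase that recognises proteins carrying SUMO chains, had a larger ratio at its site that did not pass the test. Its peak 7 held 2.23 scaled reads in KO cells and 87.5 in WT cells (log2 ratio 4.78, p = 0.00975 in the authors' deposited table, adjusted p = 0.576). The gene's other 7 peaks held 126 reads in KO cells and 132 in WT cells. The neighbouring peak 8, which starts 1984 nt into the 3' UTR, held 1.90 in KO cells and 24.1 in WT cells (p = 0.200 in the authors' deposited table) and had no match to a searched family. In both Rnf4 and Rnf6 the site peak lay late in the 3' UTR. The annotated 3' UTR is 2056 nt long in Rnf4, where the peak ends at 1920, and 1011 nt in Rnf6, where it ends at 1004. Of the other 7mer-A1 peaks, that of Rnf111 also ended late (1555 of 1561 nt). Those of Usp14 (257 of 3031 nt) and Herc4 (163 of 386 nt) did not.

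Usp14, a deubiquitinase that works on the proteasome, showed a different pattern. Peak 3, with the site, was listed at 0 in KO cells and held 18.4 scaled reads in WT cells (p = 1.51e-05 in the authors' deposited table, adjusted p = 0.00351). The other 5 peaks were also lower in KO cells, 54.1 reads together, against 141 in WT cells. Peak 2 held 9.40 in KO cells and 41.4 in WT cells, and peak 6 held 5.03 and 25.2 (p = 0.444 and 0.0616 in the authors' deposited table). All 6 peaks of Usp14 were thus lower in KO cells, and 5 of them did not pass the test. The called peak is the least-read of the 6, and the most-read, peak 4, had 27.1 reads in KO cells and 39.1 in WT cells.

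The remaining 7mer-A1 peaks were in Herc4 and Rnf111, and the Herc4 peak was among those of 20 or more scaled reads. Herc4, a HECT ligase gene, had 21.97 scaled reads at its site peak in KO cells and 10.1 in WT cells, the opposite direction (p = 0.734 in the authors' deposited table). Its only other peak was listed at 0 in KO cells and held 11.6 in WT cells. Peak 11 of Rnf111 was listed at 0 in KO cells and held 3.45 in WT cells, too few to read a change from. Thus 4 of the 5 member peaks with a 7mer-A1 had more reads in WT cells and 2 of 5 fell, beside 93 and 21 of the 104 peaks of the table in that class (89.4% and 20.2%).

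No member peak held the longer matches. The 8mer and the 7mer-m8, which pair with bases 2 to 8, occurred in 0 of 397 member peaks, and in 67 and 94 of the 14634 peaks of the table (0.458% and 0.642%). With the 7mer-A1 counted, 1.26% of member peaks had a miR-155 match of 7 or 8 nt, against 1.81% of all peaks. The 6mer alone was present in 3 member peaks, whose reads were near equal or too few. The Otud4 peak shown above had 195.3 scaled reads in KO cells and 194.8 in WT cells. Peak 1 of Herc2 had 13.8 in KO cells and 15.5 in WT cells, and peak 1 of Trim35 was listed at 0 in KO cells and held 1.97 in WT cells. The 102 peaks of the table with only a 6mer had a median log2 ratio of 1.17.

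**Figure D2:**
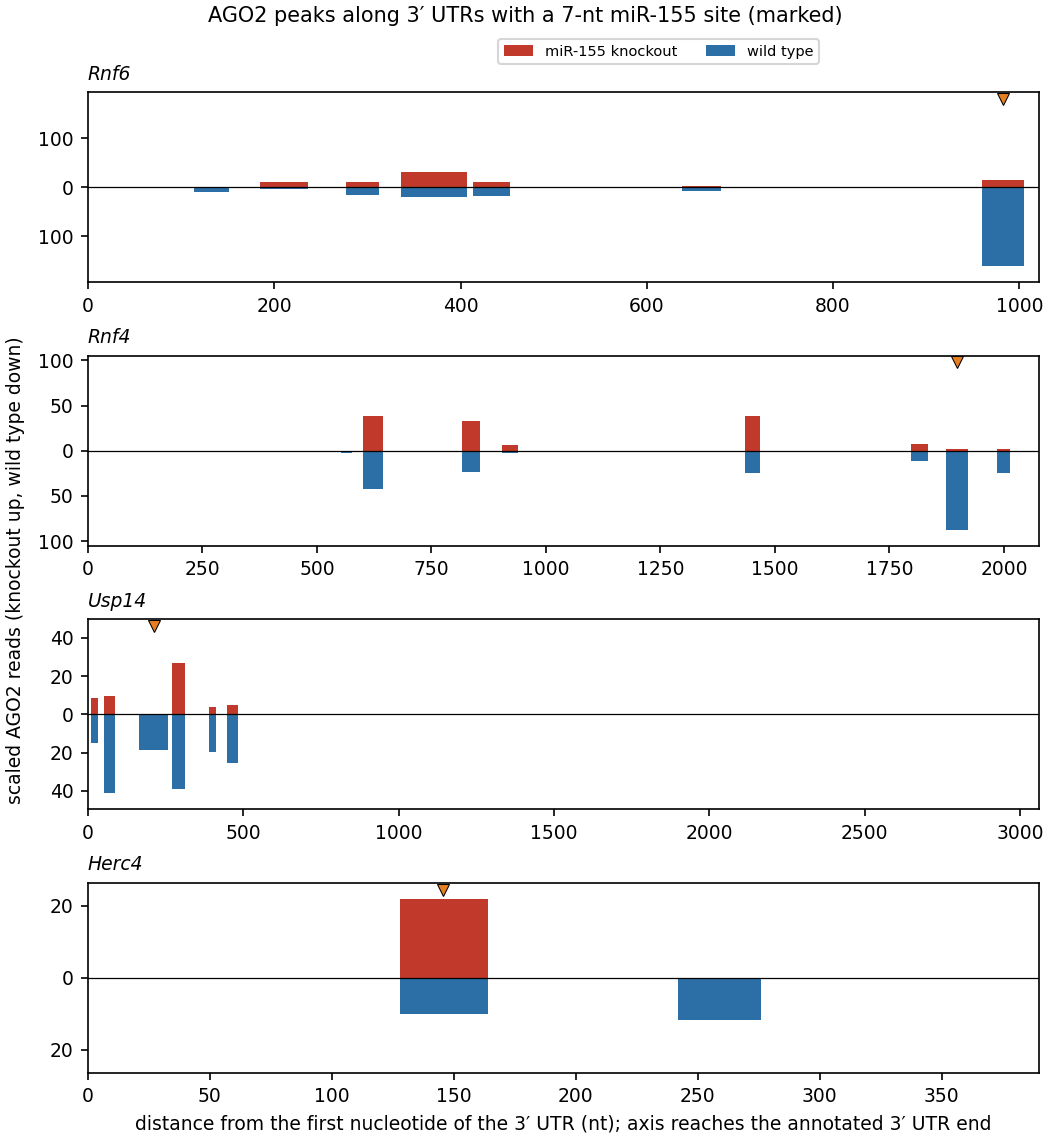
Scaled AGO2 reads of each peak along the 3' UTRs of Rnf6, Rnf4, Usp14 and Herc4, knockout upward and wild type downward, against distance from the 3' UTR start; bar widths are peak widths and the triangle marks the peak with a 7mer-A1 match to miR-155. In Rnf6 and Rnf4 the marked peak stands out by its wild-type reads (162 and 87.5), in Usp14 all peaks are lower in KO cells, and in Herc4 the marked peak is higher in KO cells (21.97 against 10.1).

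Other member peaks with an unadjusted p below 0.05 lacked a 7-nt or 8-nt miR-155 match, and none passed the adjusted threshold. Among those lower in KO cells, peak 24 of Otud4 had 13.6 in KO cells and 46.0 in WT cells (p = 0.0183 in the authors' deposited table), and peak 2 of Usp31 had 4.34 and 33.4 (p = 0.0218 in the authors' deposited table). Peak 3 of Rnf167 had 8.85 in KO cells and 29.5 in WT cells (p = 0.0268 in the authors' deposited table), and peak 1 of Rnf219 had 4.24 and 29.5 (p = 0.0362 in the authors' deposited table). Ube2d1, an E2 that works with many RING ligases, had 17.9 in KO cells and 37.8 in WT cells at peak 2 (p = 0.0409 in the authors' deposited table). Peak 24 of Otud4 held the 7-letter match to miR-155 seed bases 2 to 8 with 1 mismatch, as did 7.81% of member peaks and 7.66% of all peaks.

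The other 4 of these 14 peaks had more reads in KO cells. Usp37, a deubiquitinase gene of the cell cycle, had 15.5 scaled reads in KO cells and was listed at 0 in WT cells at peak 3 (p = 0.000402 in the authors' deposited table, adjusted p = 0.0623). Its most-read peak, peak 1, had 53.0 reads in KO cells and 62.3 in WT cells. Peak 3 of the RING ligase gene Rnf34 had 28.4 in KO cells and was listed at 0 in WT cells (p = 0.0279 in the authors' deposited table). Peak 1 of Rnf113a2 had 30.2 in KO cells and 12.5 in WT cells (p = 0.0320 in the authors' deposited table), and peak 1 of Usp33 had 35.01 and 17.7 (p = 0.0366 in the authors' deposited table). The p-value did not follow the size of the difference: peak 12 of Rnf19a, with 23.3 reads in KO cells and 0 in WT cells, had p = 0.445 in the authors' deposited table. These are the only member peaks of at least 20 scaled reads, Rnf34 peak 3 and Rnf19a peak 12, that were listed at 0 in a genotype.

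By role, each class of enzyme had similar read sums in both genotypes. The deubiquitinase class was all 30 Usp and Otud genes, Usp6nl included. Its 122 peaks held 3049 scaled reads in KO cells and 3093 in WT cells, with 1 called lower. The 147 peaks of 44 RING and TRIM genes held 3305 in KO cells and 3264 in WT cells, with 1 called lower. The 67 peaks of 21 F-box genes held 1299.97 in KO cells and 1392 in WT cells, the 50 peaks of 15 E2 genes 644 and 641, and the 11 peaks of 4 HECT genes 156 and 178, with 0 called in these 3 classes. Of all peaks 0.574% were called lower and 0.0273% higher, so these counts do not set the classes apart. The F-box class leaves out Fbxo11, which had a peak called lower. At an unadjusted p below 0.05 there was 1 E2 peak, in Ube2d1, and 0 F-box or HECT peaks. Of all peaks 2.72% were lower and 1.48% higher at that threshold. Median log2 ratios of wild type over knockout among peaks with at least 20 reads were 0.18 for 55 deubiquitinase peaks, -0.18 for 75 RING and TRIM peaks, 0.31 for 31 F-box peaks, -0.19 for 18 E2 peaks and -0.19 for 7 HECT peaks. Differences between classes were not tested.

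Reads were concentrated in a few genes. The 12 most-read of the 114 genes held 53.8% of the members' reads. Among the 45 genes with at least 100 scaled reads, 23 had more in KO cells and 22 more in WT cells. The sums of 32 of the 45 differed by at most 1.5 times. Only 4 of these 45 differed by more than 2 times, and they are named after their values were seen: Rnf6 (76.7 in KO cells, 237 in WT cells), Usp14 (54.1 and 159), Usp31 (38.3 and 86.4) and, higher in KO cells, Rnf19b (83.0 and 36.5).

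**Figure D3:**
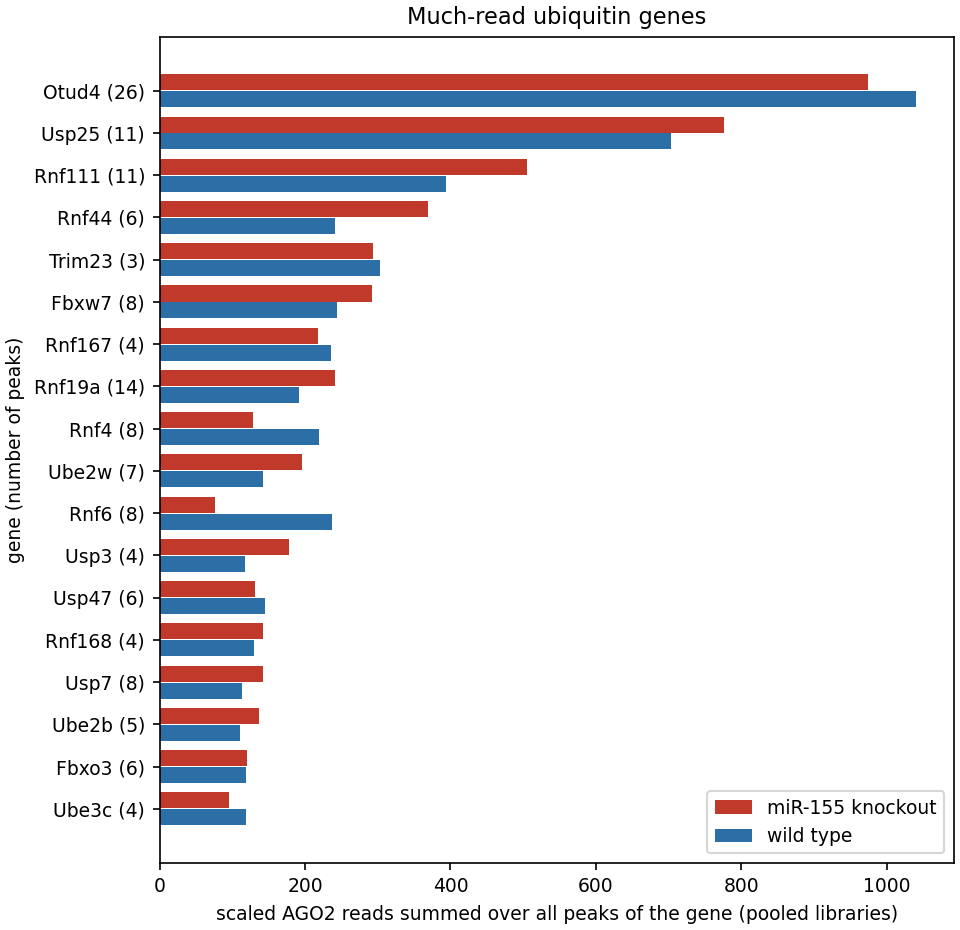
Scaled AGO2 reads summed over the peaks of each of 18 much-read ubiquitin genes, knockout above wild type, with the number of peaks in brackets; bars start at 0 and have no error because the reads are pooled. The pair that differs most is Rnf6 (76.7 in KO cells, 237 in WT cells), and that of Fbxo3 is nearly equal (120.3 and 119).

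Among deubiquitinases, Otud4, a protease of the OTU family, had the most peaks and the most reads of all members. Its 26 peaks held 975 scaled reads in KO cells and 1040.4 in WT cells, which placed it at rank 40 of all 4165 genes. The reads spread over several strong peaks: peak 9 had 197 in KO cells and 237 in WT cells, peak 25 had 195.3 and 194.8, and peak 10 had 122 and 97.2. Peak 9 carried 20.2% of the gene's reads in KO cells and 22.7% in WT cells. Several well-read peaks held matches to different families, as the following stretches show, with the match in capitals.
Otud4 peak 9, miR-17/20: caccacaagctgtgtttatCACTTTAcagt
Otud4 peak 10, miR-15/16: tctctagaggaTGCTGCTAgaacgtggttt
Otud4 peak 16, miR-29: ttttattatgaTGGTGCTAggtacaaaatt
Otud4 peak 21, miR-26: ggggttgaattTACTTGAAtggtttaaaaa
On GRCm38, Otud4 peak 9 lies at chr8:79674920-79674970 on the plus strand. Peaks 16 and 21 held 80.5 and 46.7 reads in KO cells, and 72.4 and 56.8 in WT cells.

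Usp25, a deubiquitinase known for acting on IL-17 receptor signalling, was dominated by a single contact. Its 11 peaks held 776 scaled reads in KO cells and 704 in WT cells. Peak 9 alone had 614 in KO cells and 478 in WT cells (p = 0.282 in the authors' deposited table), the most of any member peak, or 79.1% of the gene's reads in KO cells and 67.9% in WT cells. It holds a match to miR-27, and the next peak by reads, peak 8 (81.4 in KO cells, 101 in WT cells), a match to miR-26. Usp3, which removes ubiquitin from histones, had 178 reads in KO cells and 117 in WT cells over 4 peaks, of which peak 4 had 145 in KO cells and 80.0 in WT cells.
Usp25 peak 9, miR-27: actaatcaatgCTGTGAAatgaaattgata
Usp25 peak 8, miR-26: acctgaaaaagTACTTGAAtaagggctatt
Peak 9 lies at chr16:77116477-77116524 on the plus strand of GRCm38.

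Among RING ligases, Rnf111 (Arkadia), which promotes TGF-beta signalling by degrading its repressors, had the most reads. Its 11 peaks held 506 in KO cells and 393 in WT cells. Peak 7 had 318 in KO cells and 188 in WT cells (log2 ratio of wild type over knockout -0.75, p = 0.483 in the authors' deposited table), 63.0% of the gene's reads in KO cells and 47.9% in WT cells. In this peak a miR-15/16 match and a miR-27 match overlap, so the same stretch is shown with each in capitals.
Rnf111 peak 7, miR-15/16: ttTGCTGCTgtgaaacagcgttgatgaaca
Rnf111 peak 7, miR-27: tttgctgCTGTGAAacagcgttgatgaaca
The peak lies at chr9:70426130-70426182 on the minus strand of GRCm38. Rnf44, also a RING ligase gene, held 369 in KO cells and 241 in WT cells. Most of that difference lay in peak 3, with 201 in KO cells and 87.2 in WT cells (p = 0.273 in the authors' deposited table), which held no match to a searched family. Rnf167, a ligase of endosomal and lysosomal membranes, had 84.4% of its reads in peak 2, with 189 in KO cells and 194 in WT cells. Rnf19a, whose product is an RBR-type ligase, had 14 peaks and the flattest profile: its most-read peak carried only 17.1% of its reads. Trim23, a TRIM ligase that also has a GTPase domain of the ARF type, had 226 in KO cells and 231 in WT cells at peak 3, with a miR-23 match.

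Among F-box genes, Fbxw7, which directs cyclin E, MYC and NOTCH to degradation, held 293 in KO cells and 244 in WT cells over 8 peaks. Its peak 8, at the end of the 3' UTR, had 129 in KO cells and 87.5 in WT cells with a miR-25/92 match, and peak 3 had 81.4 and 74.5 with a miR-15/16 match. Fbxo3, the most-read Fbxo gene, held 120.3 in KO cells and 119 in WT cells, and its peak 2 a miR-142-3p match. Among E2 genes, Ube2w, which attaches ubiquitin to the amino terminus of proteins, held 196 in KO cells and 142 in WT cells, and its peak 3 had 104 and 84.0 with a miR-25/92 match. Among HECT genes, Ube3c had 95.3 in KO cells and 119 in WT cells, of which peak 4 had 25.9 and 62.3. The very large ligase gene Herc2 had 25.8 in KO cells and 22.1 in WT cells.
Fbxw7 peak 8, miR-25/92: ttataacttaaGTGCAATAaaatgtgtttt
Fbxo3 peak 2, miR-142-3p: taggcgctacatgACACTACAttaggcgtt
Rnf167 peak 2, miR-19: gtgaccgtcctaTTTGCACAaactcttttt
Usp47 peak 5, let-7: gatacacacatTACCTCAttgacagttctg
These stretches are shown as the most-read member contacts of their families. On GRCm38 their peaks lie at chr3:84979154-84979193 (plus strand), chr2:104060186-104060230 (plus), chr11:70651221-70651267 (plus) and chr7:112110507-112110558 (plus), in the order shown.

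**Figure D4:**
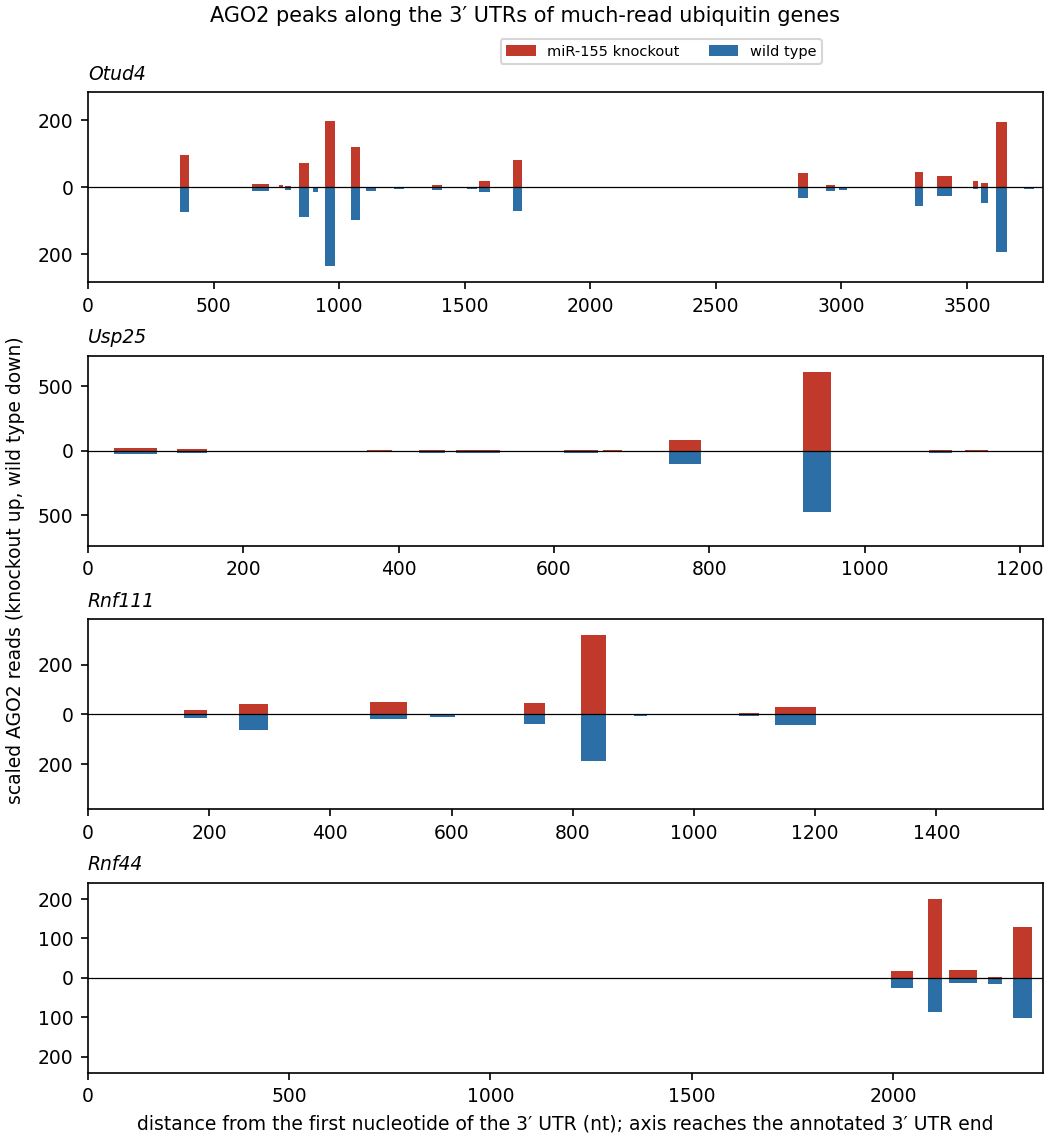
Scaled AGO2 reads of each peak along the 3' UTRs of Otud4, Usp25, Rnf111 and Rnf44, knockout upward and wild type downward, against distance from the 3' UTR start; bar widths are peak widths. Otud4 has several strong peaks (197 and 195.3 in KO cells at peaks 9 and 25), whereas 1 peak holds most reads in Usp25 (614 in KO cells, 478 in WT cells).

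Members and all peaks were also searched for sites of other microRNA families. A 7-nt or 8-nt match to at least 1 of 16 families, miR-155 included, was present in 154 of 397 member peaks (38.8%, against 35.3% of all peaks), and matches to more than 1 family in 21 (5.29%, against 4.39%). Of these 21, 14 were in RING and TRIM genes, which held 147 of the 397 member peaks. Of the 14, 13 were in Rnf genes (11.2% of their peaks) and 1 in a Trim gene (3.23%). The families most often matched were miR-15/16 with 20 member peaks (5.04%, against 4.58% of all peaks), miR-27 with 19 (4.79%, against 3.59%) and miR-19 with 18 (4.53%, against 3.05%). miR-26 sites were in 15 (3.78%, against 2.04%) and miR-181 sites in 12 (3.02%, against 1.79%). Members had a lower share of miR-142-3p sites, which were in 4 (1.008%, against 2.94%). None of these differences in share was tested. Motifs were searched on the transcript strand, and a match says only that these letters are present.

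Peaks with these other sites had medians nearer 0 than those with miR-155 sites. With peaks limited to those of 20 or more scaled reads, the members' median log2 ratio of wild type over knockout was 0.037 for 12 peaks with a miR-15/16 site, -0.28 for 12 with a miR-27 site, 0.19 for 11 with a miR-19 site, 0.35 for 10 with a miR-26 site and 0.29 for 10 with a miR-17/20 site. The same families had medians of -0.047, -0.087, 0.043, 0.044 and 0.075, in that order, over all such peaks of the table. For miR-155 the value was 3.44 for 3 member peaks and 3.41 for 129 peaks. The 3 member peaks ranged widely: 3.44 in Rnf6, 4.78 in Rnf4 and -1.04 in Herc4. The called peak of Usp14, with 18.4 reads in WT cells and 0 in KO cells, fell below the minimum. The most-read member peak with a miR-181 site, Rnf19b peak 1, had 79.8 scaled reads in KO cells and 30.3 in WT cells (p = 0.0570 in the authors' deposited table). Less-read leading peaks of families were Rnf2 peak 1 for miR-24 (27.0 in KO cells, 18.8 in WT cells), Rnf157 peak 1 for miR-30 (34.7 and 42.1) and Usp25 peak 1 for miR-146 (24.2 and 26.2). For miR-21 it was the Rnf167 peak 3 named above. Rnf2 encodes the histone H2A ligase of Polycomb complex PRC1.

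**Figure D5:**
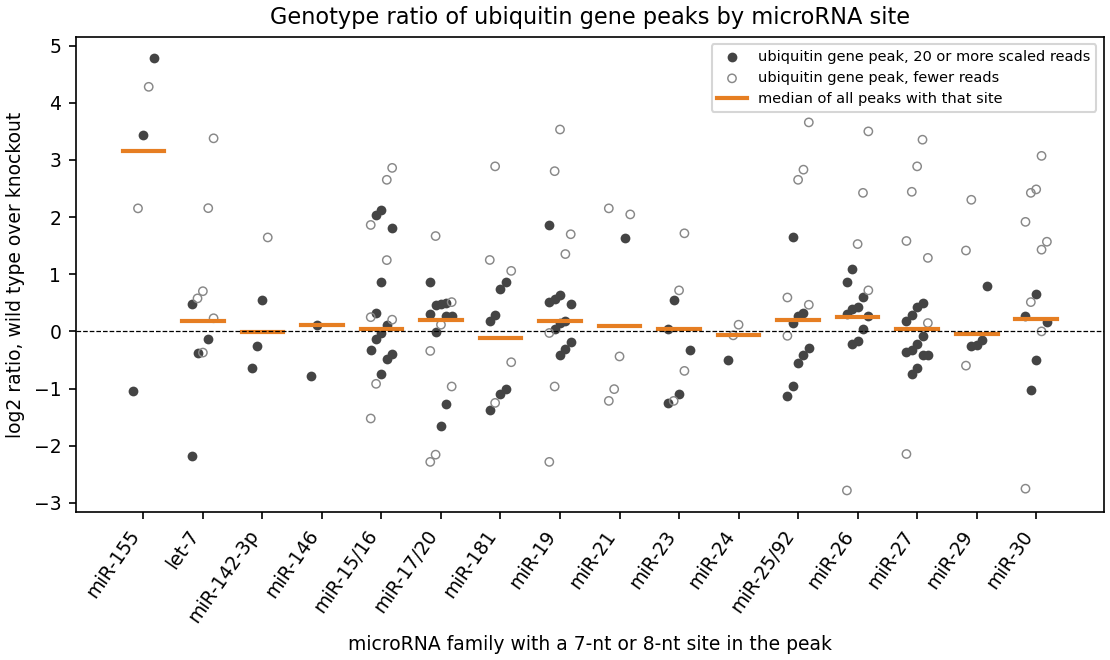
Log2 ratio of wild type over knockout for member peaks with a 7-nt or 8-nt site, by microRNA family; filled points have at least 20 scaled reads, open points fewer, and the orange bar is the median over all peaks of the table with that site. The miR-155 column has the highest medians (members 3.44, all peaks 3.16), and its lowest point, Herc4 peak 1, lies at -1.04.

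The members' peaks resembled others in shape and place. Their median width was 40 nt, against 39 nt for all peaks, and the median G+C content of their sequences 35.2%, against 36.8%. Of the 376 member peaks that could be placed on an annotated 3' UTR with the authors' offset, 41.5% lay in its first part of 3 equal ones, 24.7% in the second and 33.8% in the last, against 37.6%, 28.1% and 34.2% of all 13509 such peaks. The last of the 3 held 42.04% of the members' reads in KO cells and 43.1% in WT cells, against 41.1% and 39.6% over all such peaks. Within 100 nt of the annotated end lay 48 member peaks (12.8%, against 11.7%), among them those of Rnf6 and Fbxw7 described above. Single-peak genes made up 36 of the 114, beside 1700 of all 4165 genes. Of the 114, 26 had 5 peaks or more, and the same count over all genes is not given here. These differences were not tested.

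Ubiquitin genes that are not members give the setting. Of 84 such genes (activating enzymes, ubiquitin genes and shuttles, cullin-RING parts, HECT, RING and U-box ligases, and further deubiquitinases), 57 had peaks, 297 in all. Of these peaks 4 fell in KO cells and 0 rose, all in the group of 32 genes listed as RING, U-box and related ligases. There were 2 in Rc3h2, which encodes Roquin-2, 1 in Peli1, and 1 in Fbxo11, an F-box gene listed with that group. The 4 peaks are 1.35% of the 297, beside 0.574% of all peaks, on a list chosen with earlier results of these data known. The first peak of Rc3h2 had 0.634 scaled reads in KO cells and 123 in WT cells (adjusted p = 1.79e-07), and Peli1 peak 2 had 23.1 and 147 (adjusted p = 0.0161), by Benjamini-Hochberg adjustment of the deposited p-values. The median log2 ratio of wild type over knockout over all 297 peaks was 0.30, beside 0.23 for the members.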

How the data were processed

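AGO2 HITS-CLIP was done on 12 miR-155 KO and 12 WT libraries. Reads were aligned with Bowtie 0.12.7 to mm9, per the submitters' processing notes; the sources used here do not name the peak caller, the scaling or the test. The deposited table has 1 row per peak, with 1 column per genotype that pools its libraries, on a log2 scale read here as log2(1 + scaled reads), and the authors' log2 ratio of wild type over knockout. The authors' p-value per peak is unadjusted as deposited and was adjusted here over all 14634 peaks (Benjamini-Hochberg, calls below 0.05). Because libraries are pooled, the test planned per library could not be run, no value has an error, and depth per library is unknown.

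Members were found by symbol; members and gene lists were chosen with earlier results of these data known. Peaks named in the text include those with an unadjusted p below 0.05 or a miR-155 match. They also include those of at least 20 scaled reads listed at 0 in a genotype, and the most-read peaks of the most-read genes and families. Some further named peaks fit none of these rules and were chosen with their values known. Peak sequences were matched exactly to GENCODE M21 transcripts (GRCm38), which placed 387 of 397 members. Matches to 16 microRNA seeds (8mer, 7mer-m8, 7mer-A1) were searched on the transcript strand; miR-150 was named in the list but not searched. Mature sequences are from RefSeq. Analyses used Python 3.11.15. The p-value adjustment and the seed search, and no other step, were tested on simulated data. Results for some named genes are not reported here. Alternatives are given in the closing section.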

Additional observations from a re-analysis of the deposited data

How the results depend on the processing

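Pooled columns allow no check by leaving out a library, and nothing here measures the spread behind the authors' p-values. No paired analysis was possible because the table has 1 pooled column per genotype and none per library. Alternatives not given here moved counts by at most 1.5 times, medians by less than 0.1 (log2) and shares within their exact binomial 95% interval. The count of member peaks lower in KO cells, 2 as reported, was 1 with Bonferroni adjustment and 1 among peaks with reads in both genotypes. The count higher in KO cells, 0 as reported, was 1 (Usp37 peak 3) at an adjusted p threshold of 0.1 and 1 among peaks with 10 or more scaled reads. The median log2 ratio of wild type over knockout of the better-read member peaks, -0.012 as reported, was 0.11 with a minimum of 10 reads, where it was 0.088 over all such peaks. Counting only 8mer and 7mer-m8 sites, the share of member peaks with a miR-155 site was 0%, against 1.26% as reported, and with any family site 29.0%, against 38.8%. With 6mers counted too the miR-155 share was 2.02%. The median over all member peaks, 0.23 as reported, was 0.14 without a pseudocount among peaks with reads in both genotypes. In an alternative added after seeing the data, taking Fbxo11 as a member gave 3 lower peaks.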
